A study of Homo sapiens with 8 samples.

Results

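The genes described here are 9 that make, store, recapture or break down catecholamines: TH, DDC, DBH, PNMT, QDPR, SLC18A1, SLC18A2, SLC6A2 and MAOA. They were chosen by function, though with earlier results of these data known. Every probe set that the array annotation assigns to exactly 1 of them was taken. This gave 18 probe sets, of 22215 on the array, and 9 genes, of 11963 with a probe set of their own. The material was SH-SY5Y, a cell line established from a human neuroblastoma, and its RNA was hybridised to 8 Affymetrix arrays. Clones B and G were stably transfected with RNAi against DJ-1, the product of PARK7. Clones H and M were stably transfected with a scramble control. Each of the 4 clones was a separate line, measured on 2 arrays numbered replicate 1 and replicate 2, which gave 4 arrays per condition. With 2 clones per condition, differences between conditions and differences between individual clones cannot be fully told apart, so results are also given by clone. Whether both arrays of a clone came from separate cultures is not in the labels, so the p-values measure the spread between arrays, which may be technical.

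Catecholamines are made from tyrosine in a short chain of enzymes. Tyrosine hydroxylase (TH) makes DOPA and is the rate-limiting step, with tetrahydrobiopterin as cofactor. Aromatic amino acid decarboxylase (DDC) makes dopamine, which vesicular monoamine transporters (SLC18A1, SLC18A2) load into vesicles. There dopamine beta-hydroxylase (DBH) makes noradrenaline, and in adrenaline cells PNMT methylates it in the cytosol. The noradrenaline transporter (SLC6A2) takes released transmitter back up, and monoamine oxidase A (MAOA) oxidises it. Sympathetic neuroblasts, from which neuroblastoma derives, carry this machinery. Cytosolic dopamine oxidises readily, and DJ-1, mutated in a recessive form of Parkinson disease, is a redox-responsive protein. DJ-1 and its partner SFPQ have been reported to act on TH transcription.

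The promoter windows of the genes on which the results turn are shown first. Of the 9 genes, 5 (QDPR, DDC, DBH, SLC18A2, MAOA) had windows in the RefSeq table for GRCh38.p14, 6 windows in all, each from 250 bases before to 50 bases after a transcription start. SLC18A2 is shown because it rose in the knockdown clones. DBH and DDC are shown because their means were lower in control clone M than in the other 3 clones, as were those of some other genes given below. The SLC18A2 window lies at chr10:117240864-117241163 on the + strand and the DBH window at chr9:133636113-133636412 on the + strand. The DDC windows lie at chr7:50565356-50565655 and chr7:50561022-50561321 on the - strand. Capitals mark matches to the cAMP response element TGACGTCA, the AP-1 element TGACTCA, the EGR elements GCGGGGGCG and GCGTGGGCG, and TATAAA, searched on both strands.
SLC18A2: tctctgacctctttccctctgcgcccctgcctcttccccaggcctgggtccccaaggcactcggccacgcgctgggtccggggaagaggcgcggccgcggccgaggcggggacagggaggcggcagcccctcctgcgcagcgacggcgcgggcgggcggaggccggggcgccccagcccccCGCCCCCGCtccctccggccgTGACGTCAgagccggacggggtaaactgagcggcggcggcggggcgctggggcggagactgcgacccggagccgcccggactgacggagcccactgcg
DBH: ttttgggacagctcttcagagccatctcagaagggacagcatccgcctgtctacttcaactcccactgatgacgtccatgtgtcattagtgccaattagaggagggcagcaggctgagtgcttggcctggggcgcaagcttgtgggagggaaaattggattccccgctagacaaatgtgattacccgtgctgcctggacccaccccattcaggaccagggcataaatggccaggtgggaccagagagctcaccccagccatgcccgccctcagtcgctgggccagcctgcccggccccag
DDC, upstream start: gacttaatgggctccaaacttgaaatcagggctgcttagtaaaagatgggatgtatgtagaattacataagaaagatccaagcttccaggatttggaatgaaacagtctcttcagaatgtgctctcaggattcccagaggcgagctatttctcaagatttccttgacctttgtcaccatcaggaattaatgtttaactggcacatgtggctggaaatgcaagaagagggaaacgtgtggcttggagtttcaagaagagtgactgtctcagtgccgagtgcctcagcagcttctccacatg
DDC, downstream start: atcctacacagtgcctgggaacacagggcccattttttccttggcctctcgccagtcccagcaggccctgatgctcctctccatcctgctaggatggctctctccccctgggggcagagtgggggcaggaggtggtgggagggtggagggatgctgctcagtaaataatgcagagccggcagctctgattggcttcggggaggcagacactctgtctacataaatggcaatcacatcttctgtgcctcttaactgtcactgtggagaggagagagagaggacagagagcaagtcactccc
The SLC18A2 window held 1 cAMP response element, which is its own reverse complement and whose first base lay at -48 from the start. Of 35116 promoter windows of this length, 1.85% held that element. It also held 1 EGR element on the opposite strand, first base at -69, as 5.77% of windows did. The GC box GGGCGG, left in lower case, occurred 5 times in the SLC18A2 window, 1 of them overlapping the EGR element, and 1 time in the DBH window. At least 1 GC box was found in 45.0% of all windows. The DBH window and both DDC windows held no match to the cAMP response, AP-1, EGR or TATAAA letters. AP-1 letters were found in 4.95% and TATAAA in 11.5% of all windows. A match is a description of these letters and not a measured site.

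PARK7, the targeted transcript, lay between 10.05 and 10.45 in the knockdown arrays and between 12.95 and 13.14 in the control arrays. All values are log2 probe-set signals, on which a difference of 1 is a 2-fold change, and no gene's level is set against another's, since probe sets differ in response. Position among all probe sets is used only to mark low signals and, as a rough description, to count listed markers that reach the array-wide median. Of 12 measured sympathetic neuroblast markers, among them PHOX2A, ISL1, GATA3 and CHGA, 12 averaged at least the array-wide median signal of 8.06. Of 7 midbrain dopaminergic markers 1 did, SLC6A3, and of 4 leukocyte and 5 epithelial markers 0 did. Among 5 cholinergic, 3 serotonergic and 6 Schwann and melanocytic markers 1 each did. So did 4 of 11 mesenchymal neuroblastoma markers (VIM, TWIST1, COL1A1, FN1) and 5 of 9 fibroblast and smooth muscle markers. As a gauge of RNA quality, the 3' minus 5' signal of ACTB was 0.24 to 0.46 on knockdown arrays and 0.10 to 0.30 on control arrays. With replicate 1 first, it was 0.46 and 0.24 in B, 0.35 and 0.25 in G, 0.30 and 0.19 in H, and 0.10 and 0.11 in M. It was thus lowest in clone M, and higher in replicate 1 than in replicate 2 in B, G and H. Its part in the results below was not tested.

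The first question was whether the catecholamine genes differed between knockdown and control clones. The signal of SLC18A2, the vesicular monoamine transporter of neurons, was 2.07-fold higher in the knockdown, against a control signal too low to be told from background. PNMT was 1.31-fold higher. The other 7 genes did not pass the test, although QDPR was lower in every knockdown array than in every control array. The clone means of DDC, DBH and SLC18A1 were lowest in control clone M, with H minus M from 0.52 to 0.77. Those of PNMT, SLC18A2 and the bright SLC6A2 probe sets were also lowest in M, with H minus M from 0.04 to 0.25. Those of QDPR and MAOA were highest in M. Control clone H lay near the knockdown clones for DBH and SLC18A1, and between them and M for DDC. By limma at an adjusted p under 0.05, 2 of 18 probe sets changed, both higher, where 2.96% of all probe sets changed and 1.53% were higher. With the 2 arrays of each clone averaged, 0 of the 18 passed (6 at an unadjusted p under 0.05), and 1 of all 22215 probe sets did. The arrays of the conditions did not overlap for 3 of the 18, where this held for 11.7% of all probe sets. At an unadjusted p under 0.05, 6 of the 18 differed, where 19.9% of all did. With the replicate number added as a block, a term that removes what the same-numbered arrays share, 2 of the 18 passed, SLC18A2 and QDPR, where 3.35% of all probe sets did. The median difference over the 18 was 0.07, against 0.0029 over all probe sets. Probe sets of 1 gene share their transcript, and 7 of the 18 belong to SLC6A2.

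**Figure D1:**
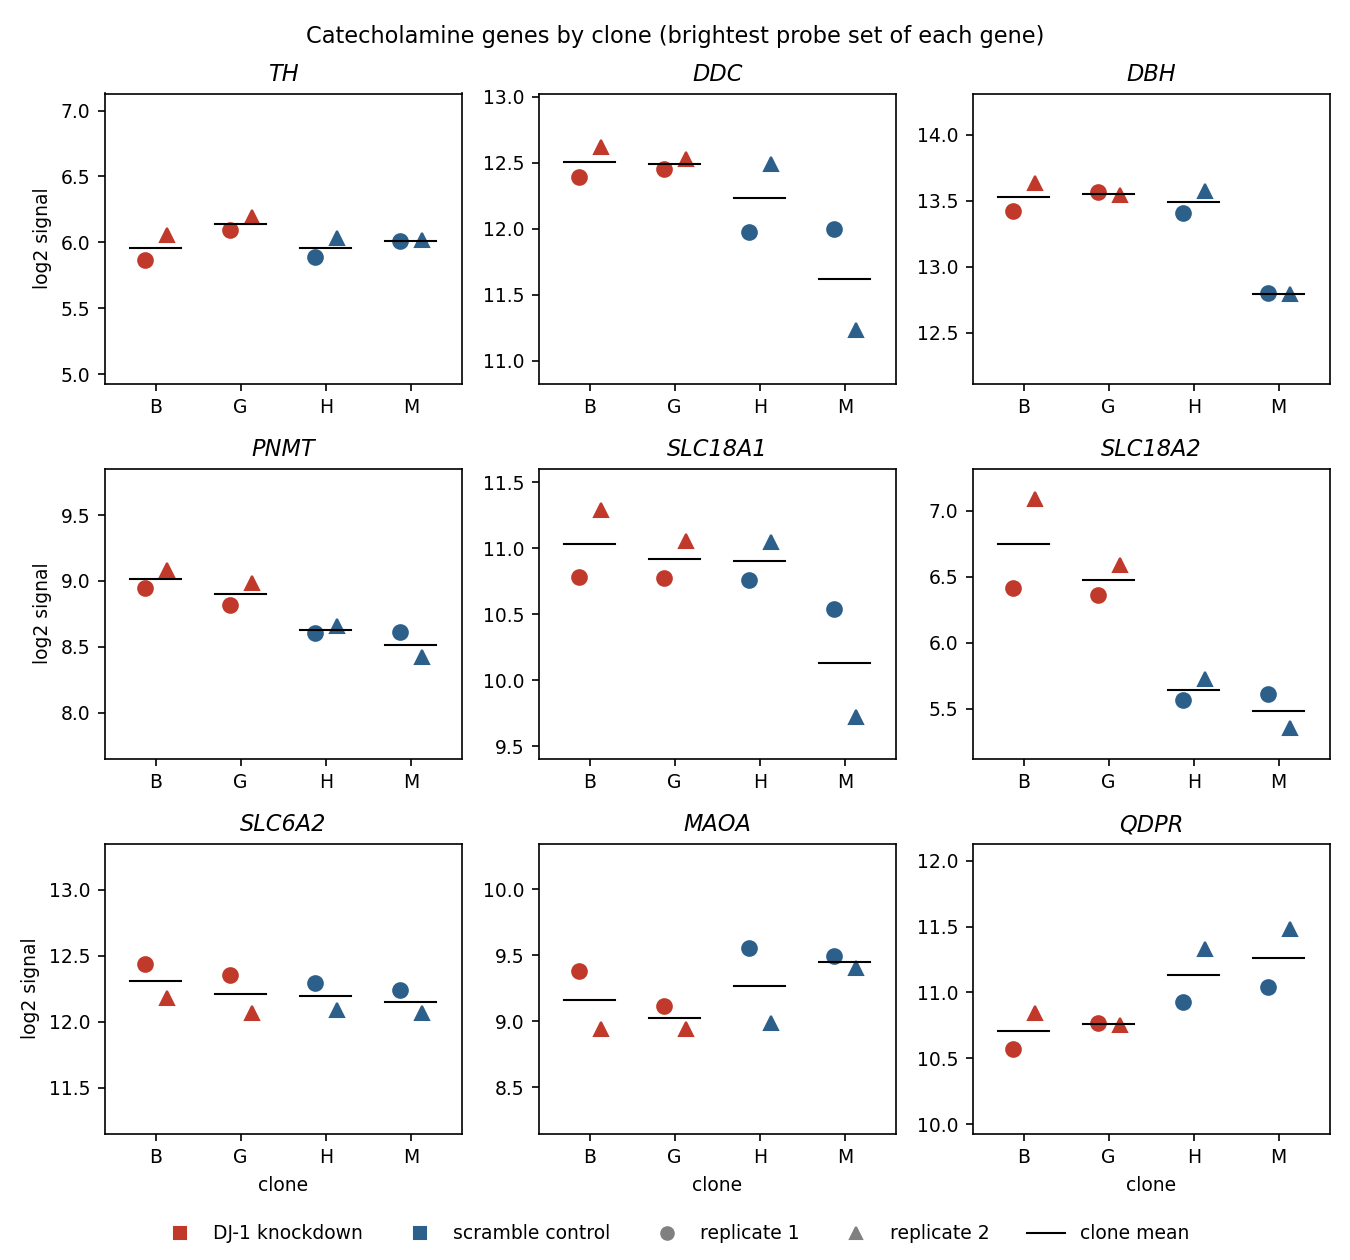
Log2 signal of the brightest probe set of each of the 9 genes (vertical axes, each spanning 2.2 units) by clone (horizontal axes); circles are replicate 1, triangles replicate 2, red knockdown and blue control clones, and bars the clone mean of 2 arrays. SLC18A2 and PNMT are higher in B and G than in H and M, and QDPR is lower there. The clone means of DDC, DBH and SLC18A1 are lowest in M. Those of PNMT, SLC18A2 and SLC6A2 are too, with smaller gaps from H to M, and those of QDPR and MAOA are highest in M.

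TH, the rate-limiting enzyme, was measured by 1 probe set, 208291_s_at. The knockdown arrays read 5.87 (B1), 6.06 (B2), 6.09 (G1) and 6.19 (G2), and the control arrays 5.89 (H1), 6.03 (H2), 6.01 (M1) and 6.02 (M2). The conditions overlapped, with the lowest value in a knockdown array and the highest in another. The difference was 0.07 (SE 0.08, 95% interval from -0.12 to 0.25), with limma adjusted p = 0.69. Of all probe sets, 19.5% had a mean at or below that of TH. Without detection calls, a TH signal this low could not be told from background. SFPQ, an RNA-binding protein and transcriptional corepressor, was 1 of 17 measured genes in a list of transcription regulators. That list holds both noradrenergic and general factors, and SFPQ is not specific to noradrenergic cells. Its brightest probe set read 12.49, 12.10, 12.20 and 12.12 in B1, B2, G1 and G2 and 11.64, 11.83, 11.57 and 11.69 in H1, H2, M1 and M2, with no overlap. SFPQ rose by 0.55 (SE 0.09, limma adjusted p = 0.020). The next brightest probe set rose by 0.42 (limma adjusted p = 0.023), and the other 2 differed by 0.10 and 0.01. Without array B2 or G1 the brightest SFPQ probe set had limma adjusted p = 0.091 or 0.061, with duplicates averaged 0.090, and without clone B or G 0.21 or 0.16.

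DDC, the decarboxylase that makes dopamine, was measured by 2 probe sets. The brighter, 205311_at, read 12.39 and 12.62 in clone B, 12.45 and 12.53 in G, 11.97 and 12.49 in H, and 12.001 and 11.23 in M, replicate 1 first. Array H2 fell among the knockdown arrays, and array M2 was the lowest by a wide margin. The difference was 0.57 (SE 0.21, 95% interval from 0.10 to 1.04), or 1.49-fold (limma adjusted p = 0.17). The dimmer probe set, 214347_s_at, had the same order, with 10.15 and 10.56 in B, 10.36 and 10.45 in G, 9.50 and 10.39 in H, and 9.86 and 8.999 in M. It differed by 0.69 (SE 0.24, limma adjusted p = 0.15). Clone H exceeded M by 0.62 on the brighter and 0.52 on the dimmer probe set without passing (limma adjusted p = 0.37 and 0.59). With the replicate number as a block these limma adjusted p were 0.18 and 0.39. In replicate 1, array M1 lay above H1 on both probe sets.

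DBH, which makes noradrenaline, separated clone M most sharply. Its 1 probe set, 206450_at, read 13.42 and 13.63 in B, 13.56 and 13.54 in G, 13.41 and 13.58 in H, but 12.80 and 12.79 in M. Between the control clones, H exceeded M by 0.70 (SE 0.09), or 1.62-fold (limma adjusted p = 0.020). Knockdown clones B and G exceeded M by 0.74 and 0.76 (limma adjusted p = 0.0082 and 0.0071). Against H they differed by 0.04 (95% interval from -0.18 to 0.25) and 0.06 (95% interval from -0.15 to 0.28). The pooled knockdown difference of 0.40 (SE 0.17, limma adjusted p = 0.23) averages these 4 values, and B and G were 1.66-fold and 1.69-fold above M.

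SLC18A1, the vesicular monoamine transporter typical of chromaffin cells, followed DDC and DBH. Probe set 207074_s_at read 10.78 and 11.29 in B, 10.78 and 11.06 in G, 10.76 and 11.05 in H, and 10.54 and 9.72 in M. The knockdown arrays overlapped those of H, and M2 was again the lowest. The difference was 0.46 (SE 0.25, limma adjusted p = 0.33). B and G exceeded M by 0.90 and 0.79 (limma adjusted p = 0.12 and 0.19) and H by 0.13 and 0.01. With the replicate number as a block, B exceeded M for SLC18A1 and for the brighter DDC probe set (limma adjusted p = 0.048 and 0.038). In that block fit, G exceeded M for the DDC probe set (limma adjusted p = 0.046) and missed the threshold for SLC18A1 (0.084).

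Between single clones, DBH was the 1 of the 18 probe sets that passed from H to M, where 1.05% of all probe sets did. Against M, 2 of the 18 passed in B (DBH and SLC18A2) and 1 in G (DBH), where 4.5% and 3.55% of all did. Against H, 0 of the 18 passed in B or in G by limma (2 and 1 at an unadjusted p under 0.05), where 0.171% and 0.0855% of all did. Between G and B 0 passed by limma (0 unadjusted), where 0.0045% of all did. With the replicate block, 9 of the 18 passed in B against M and 5 in G against M, where 20% and 16.5% of all did. In that fit 1 passed in B against H (SLC18A2) and 1 from H to M (DBH), where 2.21% and 6.92% did, and 0 in G against H or B, where 1.15% and 0.009% did.

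DDC, DBH and SLC18A1 depended on which control clone enters the comparison. Without clone H the knockdown difference was 0.88 for the brighter DDC probe set, 0.75 for DBH and 0.84 for SLC18A1 (limma adjusted p = 0.000597, 2.45e-05 and 0.0021). Without clone M it was 0.26, 0.05 and 0.07 (limma adjusted p = 0.073, 0.49 and 0.68). Without array H2 alone each of the 3 also passed (limma adjusted p = 0.0076, 0.016 and 0.040). Calls rose across the whole array in these fits, from 657 of 22215 probe sets to 3751 without H2, 8685 without clone H and 2117 without clone M. Over 12 sympathetic neuroblast markers the mean log2 signal was 11.82 in M, 12.24 in H, 12.28 in B and 12.31 in G. The mean over 11 mesenchymal neuroblastoma markers ran the other way, with 8.63 in M, 7.74 in H, 7.58 in B and 7.64 in G. Members were uneven: H minus M was -2.93 for COL3A1 and -1.95 for FN1, but 0.12 for TWIST1 and 0.03 for WWTR1. Per array the mesenchymal mean ranged from 7.34 to 7.81 in the knockdown and from 7.50 to 8.65 in the control. Of the 11, 3 (CD44, PRRX1, YAP1) averaged below the lower quartile of all probe sets (6.43). The 9 fibroblast and smooth muscle markers, which share COL1A1 and COL3A1 with the mesenchymal list, averaged 9.04 in M against 7.93 in H. By limma 0 members of these 3 lists passed between the conditions, where 2.96% of all probe sets did. At an unadjusted p under 0.05 the lists had 2, 2 and 3 members, where 19.9% of all probe sets passed. Between H and M, 2 members passed, where 1.05% of all probe sets did. These were L1CAM, a neuronal adhesion molecule (H minus M 1.08, limma adjusted p = 0.010), and YAP1, a Hippo pathway coactivator (-1.63, limma adjusted p = 0.0016). The part of the listed markers in the low DDC, DBH and SLC18A1 signals of M was not tested. In bulk RNA, fewer cells of a type and less RNA per cell cannot be told apart.

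PNMT, which turns noradrenaline into adrenaline, read 8.94 and 9.08 in B, 8.82 and 8.99 in G, 8.60 and 8.66 in H, and 8.61 and 8.42 in M on probe set 206793_at. Every knockdown array lay above every control array, and the gap between the closest arrays, G1 and H2, was narrow. PNMT rose by 0.39 (SE 0.09), from 8.57 ± 0.10 to 8.96 ± 0.11 (SD, n = 4 arrays each), with limma adjusted p = 0.049. The difference was 0.27 within replicate 1 and 0.50 within replicate 2. B exceeded M by 0.50 (limma adjusted p = 0.076, and 0.020 with the replicate block). The call sits at the threshold: with the replicate block limma gave adjusted p = 0.074, and with duplicates averaged 0.17. It was also lost without array B1, B2, G1, G2, M1 or M2 (limma adjusted p from 0.068 to 0.28), without clone B or G (0.50 and 0.26), without a clone block (0.064), with quantile normalization (0.061) and with median centring (0.054).

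QDPR, dihydropteridine reductase, regenerates the tetrahydrobiopterin that TH uses. Probe set 209123_at read 10.57 and 10.84 in B, 10.77 and 10.76 in G, 10.93 and 11.33 in H, and 11.04 and 11.48 in M. The highest knockdown array (B2) was below the lowest control array (H1). The difference was -0.46 (SE 0.12), a 1.38-fold lower signal with limma adjusted p = 0.072, and with the replicate block QDPR fell (limma adjusted p = 0.044). The 4 differences of a knockdown clone from a control clone ran from -0.56 to -0.37, and none passed by limma (adjusted p from 0.14 to 0.9997). With the replicate block, B and G against M did (limma adjusted p = 0.013 and 0.021). The difference also passed without array H1 or H2 (limma adjusted p = 0.018 and 0.025), without clone H or M (0.0015 and 0.019), and when low-signal probe sets were left out of the test (0.047). Calls rose across the whole array in these fits, to 1544, 3751, 8685, 2117 and 821. QDPR did not pass without array B1, B2 or G1 (limma adjusted p = 0.18, 0.27 and 0.16) or with duplicates averaged (0.10). It also did not pass without array G2, M1 or M2, or without clone B or G. Of 5 other measured genes of tetrahydrobiopterin synthesis, recycling or control, 0 passed by limma (1 at an unadjusted p under 0.05, 0 with the replicate block). Of the 5, 4 had a negative difference, and the median was -0.13. The 4 include GCHFR (-0.21), which encodes a regulator of GCH1 and not an enzyme of that synthesis. GCH1, which encodes the first and rate-limiting enzyme of that synthesis, differed by -0.43 (SE 0.11, limma adjusted p = 0.080). PTS differed by 0.08 and PCBD1 by -0.01.

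SLC18A2 had the largest signal difference of the 18 probe sets, and, as for TH, its control signal was too low to be told from background. The values below are differences in signal, and the fold change of the transcript is not set by them. Probe set 205857_at read 6.41 (B1), 7.09 (B2), 6.36 (G1) and 6.59 (G2) in the knockdown and 5.56 (H1), 5.72 (H2), 5.61 (M1) and 5.35 (M2) in the control. The lowest knockdown array lay above the highest control array, and B2 stood highest. SLC18A2 rose by 1.05 (SE 0.15, 95% interval from 0.71 to 1.39), from 5.56 ± 0.15 to 6.61 ± 0.33 (SD, n = 4 arrays each), with limma adjusted p = 0.011. It was higher in B than in H and M by 1.11 and 1.27, and higher in G by 0.83 and 0.99. Of these 4 pairs of clones, B against M passed without the block (limma adjusted p = 0.025), and with the replicate block B against H, B against M and G against M did (0.029, 0.0041 and 0.012). Between clones of one condition, G minus B was -0.28 and H minus M was 0.16, and these pairs did not pass (limma adjusted p = 0.9999 and 0.82).

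The SLC18A2 difference was 0.80 within replicate 1 and 1.30 within replicate 2. The call was kept without each single array in turn (limma adjusted p from 0.0028 to 0.034), with the replicate block (0.018), and with both other normalizations. It was lost without clone B or clone G (limma adjusted p = 0.12 and 0.074), with duplicates averaged (0.074) and within either replicate number alone (0.074 and 0.20). Of all probe sets, 20.3% had a mean at or below that of SLC18A2. SLC18A3, the vesicular acetylcholine transporter of the same family, was among the cholinergic markers. Its probe set read 9.18, 8.66, 9.21 and 8.73 in B1, B2, G1 and G2 and 8.43, 8.18, 8.44 and 8.18 in H1, H2, M1 and M2, with no overlap. SLC18A3 rose by 0.64 (SE 0.14, limma adjusted p = 0.042, and 0.0098 with the replicate block). That call was lost with duplicates averaged (limma adjusted p = 0.087), without array B1, B2, G1, G2 or M2 (from 0.064 to 0.14), without clone B or G (0.33 and 0.27), and without a clone block (0.059). Of the 5 cholinergic markers 1 passed by limma, where 2.96% of all probe sets did, and the median difference was -0.12. CHAT, which makes acetylcholine, differed by 0.0002, NGFR by -0.20 and SLC5A7 by -0.12 (limma adjusted p = 0.9992, 0.20 and 0.65). These 3 averaged below the lower quartile of all probe sets. VIP, a neuropeptide of cholinergic sympathetic neurons, differed by -1.88 (limma adjusted p = 0.19, and 0.026 with the replicate block).

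**Figure D2:**
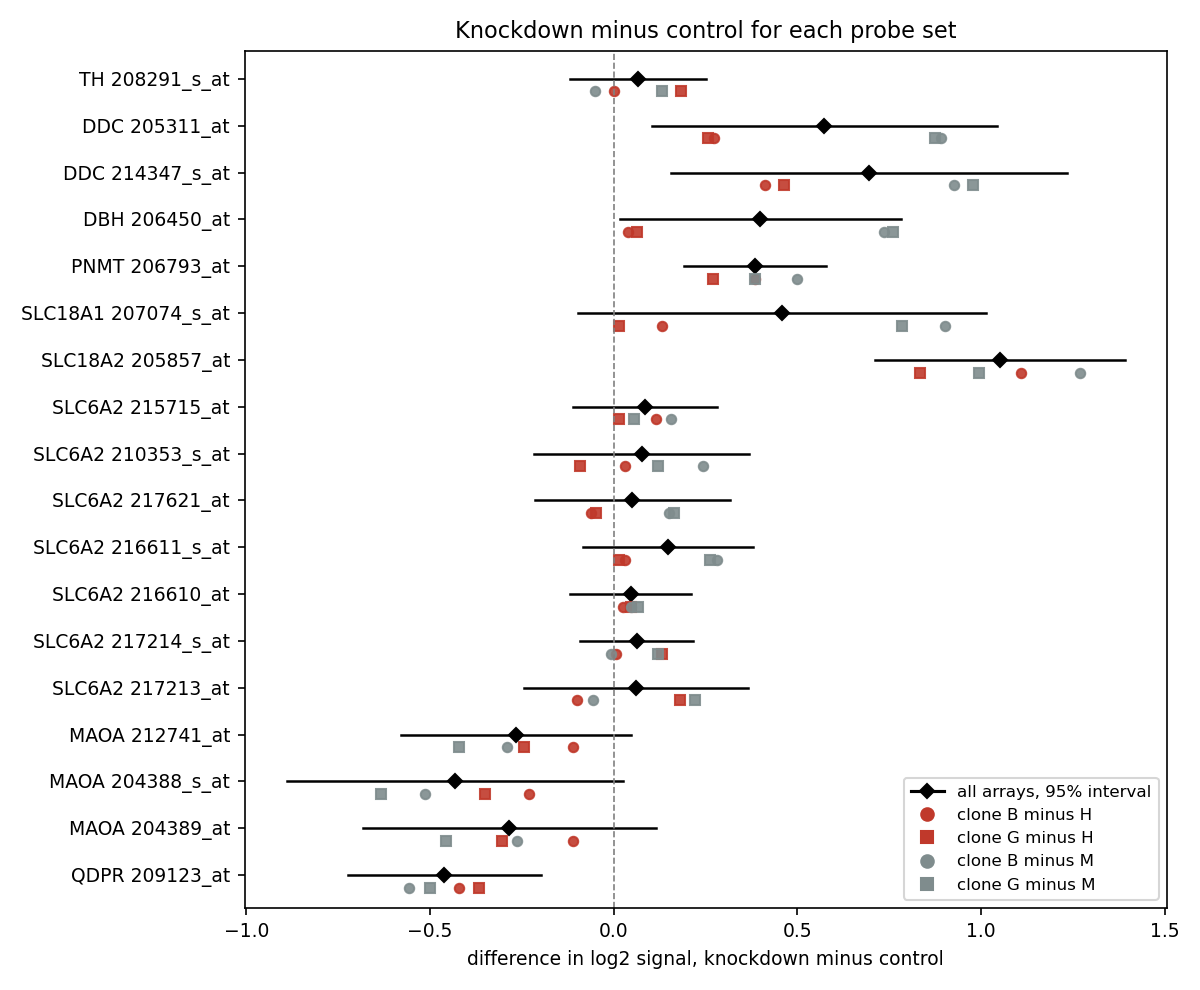
Knockdown minus control in log2 signal (horizontal axis) for each of the 18 probe sets (vertical axis). Black diamonds and lines are the limma difference over all 8 arrays and its 95% interval, and coloured marks are the differences of single clone means, red against H and grey against M. The marks of SLC18A2 all lie between 0.83 and 1.27, while those of DBH lie at 0.04 and 0.06 against H and at 0.74 and 0.76 against M.

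SLC6A2, the noradrenaline transporter, had 7 probe sets, 4 of them bright (mean 11.02 to 12.22) and 3 dim (5.31 to 6.77). On the brightest, 215715_at, the knockdown arrays read 12.44 (B1), 12.18 (B2), 12.35 (G1) and 12.06 (G2) and the control arrays 12.30 (H1), 12.09 (H2), 12.24 (M1) and 12.06 (M2). Values sorted by replicate number rather than by condition, with every replicate 1 array above every replicate 2 array. The knockdown difference was 0.09 (SE 0.09, 95% interval from -0.11 to 0.28, limma adjusted p = 0.62). The other 6 probe sets differed by 0.05 to 0.15, and 0 of the 7 passed by limma (0 at an unadjusted p under 0.05, and 0 with the replicate block). With the replicate block, B exceeded M on 210353_s_at by 0.24 and on 216611_s_at by 0.28 (limma adjusted p = 0.048 and 0.036; the fit lacking that block gave 0.51 and 0.30). Without clone H, 216611_s_at passed between the conditions, at 0.27 (limma adjusted p = 0.010).

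MAOA, which oxidises noradrenaline and serotonin, had 3 probe sets, and each was lower in the knockdown on average without passing. The brightest, 212741_at, read 9.38 and 8.94 in B, 9.11 and 8.94 in G, 9.55 and 8.99 in H, and 9.50 and 9.40 in M, and differed by -0.27 (SE 0.14, limma adjusted p = 0.32). Probe set 204388_s_at read 7.61 and 7.09 in B, 7.57 and 6.89 in G, 7.86 and 7.30 in H, and 8.16 and 7.57 in M, and differed by -0.43 (SE 0.20, limma adjusted p = 0.28). The third, 204389_at, differed by -0.28 (limma adjusted p = 0.41). The conditions overlapped on all 3 probe sets. Within each replicate number both knockdown arrays lay below both control arrays on all 3, which share 1 transcript. On 212741_at the gap in replicate 2 was small, with 8.94 in G2 and 8.99 in H2. How many of all probe sets separate in this way was not counted, so this is not read as a result. For 204388_s_at the difference was -0.42 in replicate 1 and -0.45 in replicate 2. With the replicate block limma gave adjusted p = 0.066 for 204388_s_at, 0.25 for 212741_at and 0.23 for 204389_at. Between single clones in that fit, 204388_s_at differed from M by -0.51 in B and -0.63 in G (limma adjusted p = 0.012 and 0.0060, against 0.39 and 0.34 without the block). Without array H2 or clone H, 204388_s_at passed (limma adjusted p = 0.039 and 0.014), as did 212741_at (0.031 and 0.014). MAOB, the other monoamine oxidase, differed by -0.44 (SE 0.15, limma adjusted p = 0.15).

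The second question was how the same genes differed between the replicate numbers, which the titles give for every clone. Replicate 2 was lower in all 4 clones for the 4 bright SLC6A2 probe sets and the 3 MAOA probe sets, but not for the 3 dim SLC6A2 ones, and 0 probe sets of the synthesis and vesicular storage genes passed by limma. By limma with clone as a fixed term, 6 of the 18 probe sets passed, all lower in replicate 2, where 13.4% of all probe sets passed and 8.76% were lower. These were the 4 bright SLC6A2 probe sets and 2 of the 3 MAOA probe sets.

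For SLC6A2 215715_at, replicate 2 minus replicate 1 was -0.26 in B, -0.29 in G, -0.20 in H and -0.17 in M, with a mean of -0.23 (SE 0.05, limma adjusted p = 0.016). The other bright SLC6A2 probe sets fell by 0.22 to 0.34. For MAOA 204388_s_at the 4 clone differences lay between -0.68 and -0.52, with a mean of -0.59 (SE 0.07, limma adjusted p = 0.0039). MAOA 204389_at fell by 0.48 and 212741_at differed by -0.32 (limma adjusted p = 0.016 and 0.055). QDPR was higher in replicate 2 by 0.27, 0.40 and 0.44 in B, H and M and differed by -0.01 in G, with a mean of 0.27 (limma adjusted p = 0.059).

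For DDC and SLC18A1 the clones moved in opposite directions. On the brighter DDC probe set, replicate 2 exceeded replicate 1 by 0.23 in B, 0.08 in G and 0.52 in H, and the difference was -0.77 in M. On the dimmer one these values were 0.41, 0.09, 0.89 and -0.86. SLC18A1 gave 0.51, 0.28, 0.29 and -0.82. Their means were between 0.01 and 0.13, and without clone M they were 0.27, 0.46 and 0.36 and passed (limma adjusted p = 0.036, 0.038 and 0.0067). DBH, in contrast, differed between the M arrays by -0.01, so its low level in M was present in both replicates. The test of whether the knockdown difference itself differed between replicate numbers called 0 of 22215 probe sets by limma (0 without a clone block), with 1901 at an unadjusted p under 0.05, which is 8.56%, so the share called was 0%. Among the 18, 1 had an unadjusted p under 0.05, QDPR, and the lowest limma adjusted p was 0.58.

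**Figure D3:**
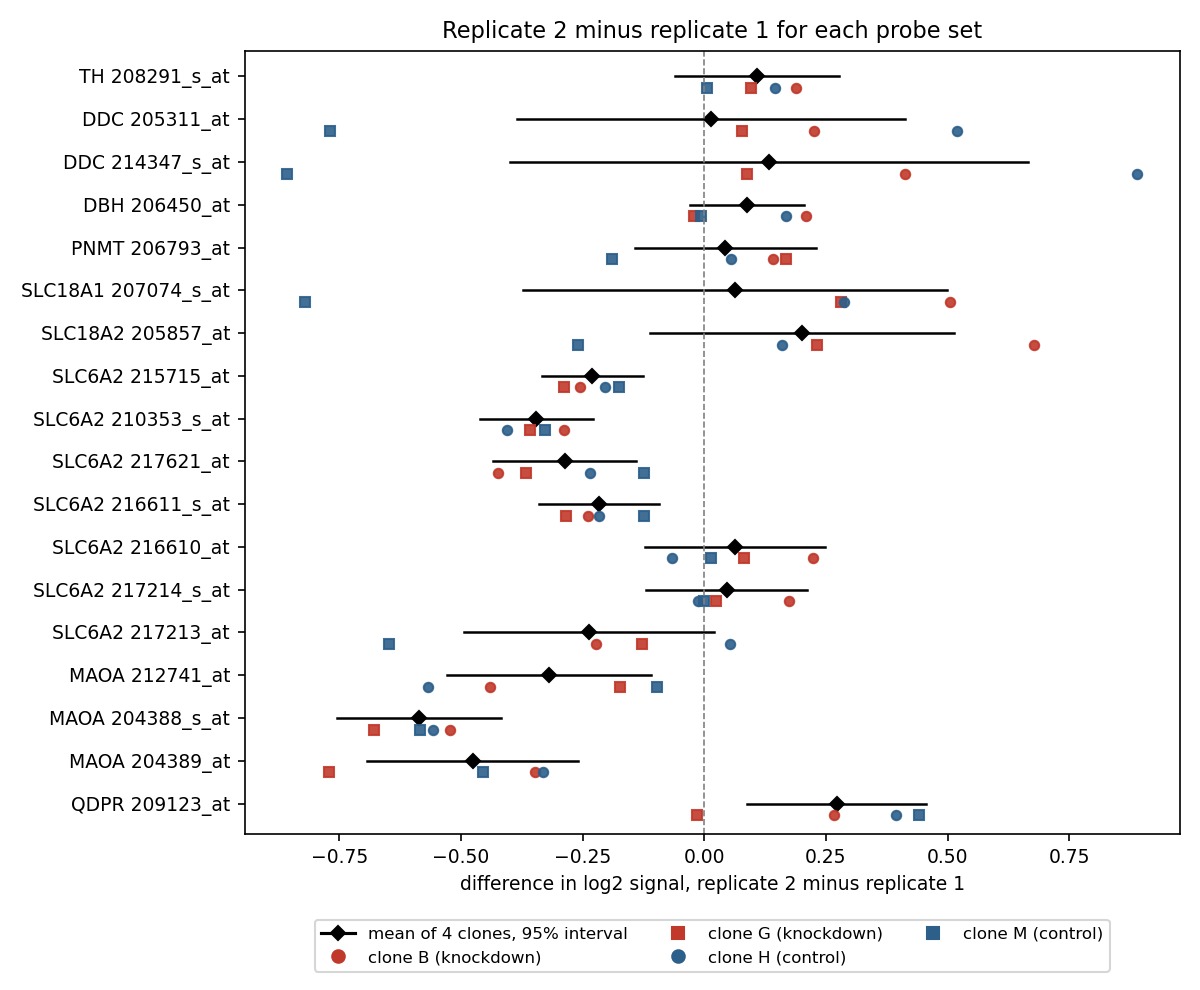
Replicate 2 minus replicate 1 in log2 signal (horizontal axis) for each of the 18 probe sets (vertical axis). Black diamonds and lines are the mean over 4 clones and its 95% interval, and coloured marks are single clones, red knockdown and blue control. All clones lie below 0 for the 4 bright SLC6A2 and the 3 MAOA probe sets, while for DDC and SLC18A1 clone M lies between -0.86 and -0.77 and the others above 0.

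Other genes of the pathway are given by list, beside 2.96% of all probe sets that changed and 1.53% that were higher. By limma 0 of 8 other genes of monoamine breakdown passed (median difference 0.07), 0 of 3 other plasma membrane monoamine transporters (-0.14), and 0 of 5 genes that supply DBH with copper or ascorbate (-0.06). At an unadjusted p under 0.05 these lists had 2, 0 and 1 members, and with the replicate block 0 members passed in each. Of 13 dopamine and adrenergic receptor genes 0 passed by limma (3 at an unadjusted p under 0.05, 0 with the replicate block, median -0.01), and 7 of them averaged below the lower quartile of all probe sets. Of 15 subunits of the proton pump that energises vesicular uptake 0 passed by limma (4 at an unadjusted p under 0.05, median 0.03), while ATP6V1G2 differed by 0.69 (limma adjusted p = 0.077) and rose with the replicate block (0.041). ATP6V1G2 also passed without array H1 or H2 (limma adjusted p = 0.046 and 0.0042), and when low-signal probe sets were left out (0.0496). It did not pass with duplicates averaged (limma adjusted p = 0.17) or without array B1, B2 or G1 (0.11, 0.32 and 0.13). Of the 17 listed noradrenergic and general transcription regulators 1 rose, SFPQ, with a median of 0.11. The noradrenergic factors PHOX2A, GATA2, GATA3, HAND2, ISL1 and TFAP2B did not pass by limma. A single call in a list of this length is not read as a result about the list.

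Among 13 kinases, phosphatases and 14-3-3 proteins that act on TH, 1 rose and 0 fell, with a median of 0.14. Of all probe sets 2.96% changed and 1.53% were higher, and this single call is likewise not read as a result about the list. The gene that rose was YWHAH, the eta isoform of 14-3-3, a family that binds phosphorylated TH. It read 10.38, 10.27, 10.22 and 10.18 in B1, B2, G1 and G2 and 9.83, 9.72, 9.99 and 9.53 in H1, H2, M1 and M2, with no overlap. YWHAH rose by 0.49 (SE 0.10, limma adjusted p = 0.034, also 0.034 with the replicate block). It lost its call with duplicates averaged (limma adjusted p = 0.10), and without B1, B2, G1 or G2 (0.070 to 0.21), or without clone B or G (0.46 and 0.23). The dopamine transporter gene SLC6A3 differed by -0.14 (SE 0.11, limma adjusted p = 0.52).

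Some genes on the array had profiles close to those of the catecholamine genes. Likeness was the root mean square difference between profiles over the 8 arrays, each centred on its own mean, among 6802 genes with a signal at or above the median. It was taken for the 3 genes whose brightest probe set spanned at least 1 unit, and as a description, since all profiles share the same clones and replicate numbers. The profile closest to SLC18A1 was that of KBTBD11 (0.08), followed by PCLO (0.13), which encodes a large protein of the presynaptic active zone. KBTBD11 was also closest to DDC (0.11), with SLC18A1 next (0.14). KBTBD11 read 9.92 and 10.29 in B, 9.95 and 10.24 in G, 9.84 and 10.10 in H, and 9.67 and 9.01 in M, so it too was lowest in M2. Closest to SLC18A2 were KCNMA1 (0.22), a calcium-activated potassium channel gene, and RNF41 (0.22), a ubiquitin ligase gene. KCNMA1 differed between conditions by 0.96 and RNF41 by 0.76. Both were picked for likeness to SLC18A2, whose own profile differs between conditions. A difference in that direction was therefore built into the choice, and no test of it is given.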

How the data were processed

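Signals were read from the authors' deposited log2 values of 8 arrays. GCOS and RMA were used per the submitters' processing notes, and versions are not given in the sources used here. RMA usually subtracts background, forces one intensity distribution on all arrays and summarises probes by median polish, which can compress differences. The log2 scale was read from the values. Of 22277 probe sets, 62 controls were left out. The array annotation gave 19064 of the rest 1 gene, 1043 several and 2108 none, and 19052 matched current RefSeq symbols by gene ID. The number of arrays limits precision.

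Conditions were compared with limma 3.58.1 in R 4.3.3 (lmFit and trended eBayes). Arrays of 1 clone shared a random block (duplicateCorrelation with statmod 1.5.0, consensus correlation -0.07). Because that correlation was negative, the block made no allowance for likeness between arrays of a clone. It gave more calls, 657 against 489 without it, and PNMT passed with it but not without it (limma adjusted p = 0.049 and 0.064). Tests were two-sided, adjusted by Benjamini-Hochberg over 22215 probe sets, threshold 0.05. Clones were compared with 1 mean per clone, and replicate numbers with clone as a fixed term. Same-numbered arrays deviated together from their clone means in all 6 pairs of clones (r across probe sets from 0.42 to 0.78), so replicate-block values are printed where they change a call. Fits were tested on simulated data that held no clone differences beyond the changes put in. How the fits behave when clones of a condition differ was not tested. The genes and lists were chosen with earlier results of these data known; every one of the 9 genes is named, list genes where they passed, and others for their role or after their values were seen. One probe set per list gene was used, the brightest.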

Additional observations from a re-analysis of the deposited data

Results flagged for a closer look

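Of 36 groups of 4 arrays (18 probe sets in each condition), 1 held an array set far apart from the other 3, and chance gives about 1 in 20. Control array H1 read 5.89 for TH, against 6.01 to 6.03 in the other 3 control arrays, a gap of 0.84 of the group's range.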

How the results depend on the processing

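Over all 22215 probe sets 657 changed, and among the 18 catecholamine probe sets 2. Changed probe sets numbered 1568 with a replicate block and no clone block (added after the data were seen; 4 of the 18), 1 with duplicates averaged (0), 18 within replicate 1 (0) and 1 within replicate 2 (0). Without clone B, G, H or M they numbered 13, 22, 8685 or 2117, and among the 18 there were 0, 0, 10 and 3. Leaving out 1 array in turn gave 69 to 3751 in all and 1 to 9 of the 18, the highest without H2. Of the 18, 1 changed without the clone block, with quantile normalization and with median centring, and 2 with the replicate block, which called 744 in all. With duplicates averaged 6 of the 18 had an unadjusted p under 0.05, within replicate 1 it was 5 and within replicate 2 it was 4. Without clone B or G it was 3. The replicate block changed the calls of PNMT and QDPR and of no other catecholamine probe set between the conditions.

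Differences that turned in sign were small and called in neither setting. For SLC6A2 217621_at these were -0.0078 with quantile normalization, -0.055 without clone M, -0.057 within replicate 2, and -0.014 to 0.13 without 1 array. SLC6A2 216610_at turned to -0.043 within replicate 1, 210353_s_at to -0.030 without clone M, and 217213_at and 217214_s_at to -0.078 and -0.0017 without clone G. TH turned to -0.025 without clone G. Without 1 array, 217213_at ranged from -0.039 to 0.14 and 210353_s_at from -0.017 to 0.18. Replicate 2 minus replicate 1 of DDC 205311_at turned to -0.057, -0.0080 and -0.15 without clone B, G or H, that of SLC18A1 to -0.084, -0.0089 and -0.011, and that of DDC 214347_s_at to -0.12 without H. The cause was not tested. The low-signal filter left 11 of the 18 probe sets, which leaves out TH, SLC18A2, 2 of MAOA and 3 of SLC6A2.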
